A study of Mus musculus with 2 samples.

Results

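The histone genes named by the older Hist cluster symbols were examined in macrophages of the infarcted mouse heart. Members were all genes whose symbol begins with Hist1h, Hist2h, Hist3h or Hist4h, a rule that uses no measured value. It found 67 of the 23284 genes in the authors' deposited table: 6 genes of the linker histone H1, 18 of H2A, 18 of H2B, 12 of H3 and 13 of H4. By cluster, 53 were Hist1, 10 Hist2, 3 Hist3 and 1 Hist4.

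RNA of Ly6Chi macrophages was sequenced in 1 library, and that of Ly6Clo macrophages in 1. Both came from hearts of C57BL/6 mice (C57BL/6 J in the treatment notes), taken 3 days after the LAD coronary artery was tied off, so that strain, injury and day are the same on both sides. Ly6C is a surface protein that is high on classical monocytes and on cells newly derived from them. The labels give no number of animals, no gating scheme and no word on selection of polyadenylated RNA. The quantity reported is the authors' signed comparison statistic, 1 score for each gene, whose unit and scaling are not stated. The table's columns of values per library bear codes that match neither sample's labels. They were not used, and no level, fold change or depth is given here. For the same reason no sign can be given to a population, and Ly6c2, a gene of the Ly6C antigen, serves only to mark a side, with -1.78 in the authors' deposited table. With 1 library a population there is no replicate error and no p-value. In bulk RNA, fewer cells of a kind and less RNA per cell cannot be told apart.

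Core histones H2A, H2B, H3 and H4 form the protein spool of the nucleosome, and H1 binds the DNA between spools. Most of these genes are replication-linked: they have no introns, are transcribed in S phase, and make an mRNA that ends just past a 3′ stem-loop, which the stem-loop binding protein holds, in place of a poly(A) tail. Some of the same genes also give longer, polyadenylated transcripts, mainly in cells that have left the cell cycle. Most histone variant genes outside the clusters make polyadenylated mRNA throughout the cycle, while H2afx is known to make both kinds. In an infarct, monocyte-derived and resident macrophages can both divide, which is the setting in which replication-linked histone mRNA is made.

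The stem-loops of 8 members are shown because they mark where a replication-linked transcript ends and how far an annotated model runs beyond it. They were read from GENCODE M21 models on GRCm38, the assembly of the mm10 build named in the submitters' processing notes. Each is given 5′ to 3′ on the gene's strand with its 16-base match in capitals.
Hist1h1c, chr13:23739507-23739532, + strand: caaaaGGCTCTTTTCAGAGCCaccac
Hist1h2be, chr13:23585526-23585551, - strand: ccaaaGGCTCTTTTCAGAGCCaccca
Hist1h1d, chr13:23555782-23555807, + strand: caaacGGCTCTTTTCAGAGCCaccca
Hist4h4, chr6:136803993-136804018, - strand: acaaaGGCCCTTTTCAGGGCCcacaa
Hist1h4i, chr13:22040961-22040986, - strand: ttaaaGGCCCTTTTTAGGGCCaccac
Hist3h2a, chr11:58955167-58955192, + strand: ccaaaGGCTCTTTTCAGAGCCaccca
Hist1h2bb, chr13:23747198-23747223, + strand: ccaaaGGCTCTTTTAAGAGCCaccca
Hist1h2bj, chr13:22043633-22043658, + strand: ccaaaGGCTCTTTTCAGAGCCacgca

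The histone stem-loop motif, searched on the transcript strand, matched a model of 44 of the 67 members. The form in Hist1h1c was found in 26 members, that in Hist4h4 in 7, that in Hist1h2bb in 6 and that in Hist1h4i in 2. The models differed far more in what follows. Past the stem-loop, the model ran on for 23 bases in Hist1h2bb and Hist1h2bj, 330 in Hist1h4i, 840 in Hist1h1c, 1643 in Hist3h2a, 1861 in Hist1h2be, 2445 in Hist4h4 and 4884 in Hist1h1d. Of the 23 members with no match, 12, the pseudogene Hist3h2bb-ps among them, had a model that ran from ATG to a final stop triplet. No stem-loop could be seen in those. For the others, Hist1h2bc and Hist2h2be among them, no match says only that these letters are not in the model.

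Most histone genes had a statistic at or next to 0, and 1 gene stood clear of the family. The authors' deposited table had 31 members above 0 (40.4% of all genes were), 2 below 0 (29.6% of all genes) and 34 at exactly 0 (30% of all genes). Of the 31, 11 held the smallest positive value in the table, 2.42e-06, which 841 genes share. That leaves 20 positive and 2 negative members with another value. Most of these values were shared too, and only 3 members, Hist1h2bc, Hist1h1c and Hist3h2a, had a value held by no other gene. The value of Hist2h2be was held by 2 genes, as was that of Hist4h4. The values of Hist1h2be and Hist1h1d were each held by 24 genes, and that of Hist1h3d by 39. Hist1h4h and Hist1h1b had a value held by 75 genes, and Hist1h2bb had 1 held by 132. At 0.5 or more the authors' deposited table had 1 member, Hist1h2bc, and 3.77% of all genes. At -0.5 or less it had 0 members and 0.988% of all genes. Above 0.1 it had 11 members and 21.3% of all genes, and below -0.1 it had 1 member and 15.6% of all genes. The members' shares past 0.5 and 0.1 were no higher than those of the table, and the member share at exactly 0 was higher than that of the table, at 50.7%. Over members with a value other than 0 the median was 0.0288, computed from the authors' deposited table, beside 0.00512 over all such genes. A statistic of 0 is not read here as absence of the transcript or as equality of the libraries.

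**Figure D1:**
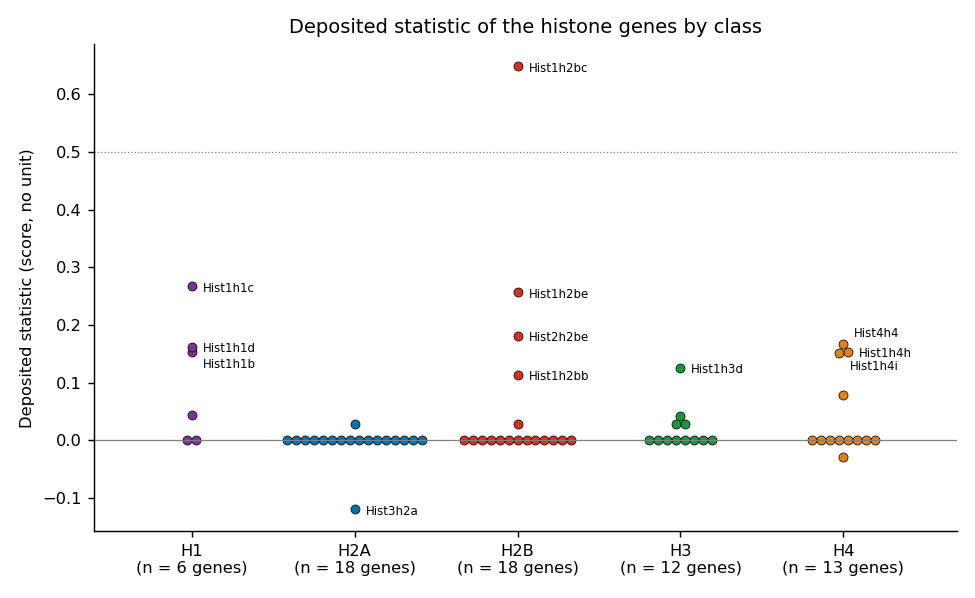
Authors' deposited statistic of the 67 histone genes, by class; each point is 1 gene, points of like value are spread sideways, and the dotted line marks 0.5. Hist1h2bc at 0.648 is the only gene past the line, and most H2A, H2B, H3 and H4 genes lie at or next to 0.

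Among linker histones, which help to compact chromatin, 4 of 6 genes were positive and 2 were at 0. Hist1h1c, an H1 gene that many non-dividing cells also express, stood at 0.267 in the authors' deposited table, with rank 3067. Hist1h1d had 0.163, Hist1h1b, known mainly from dividing cells, had 0.154, and Hist1h1e had 0.0440, in the same authors' deposited table. Hist1h1t, the H1 gene of male germ cells, and Hist1h1a were at 0 in the authors' deposited table. The class median over its 4 values other than 0 was 0.158, computed from the authors' deposited table. H1 genes differ from each other in sequence, with 6 distinct coding sequences for 6 genes. Hist1h1c at chr13:23738808-23740367 and Hist1h1b at chr13:21779883-21780625 overlap no other GENCODE gene, while Hist1h1e overlaps the long model of Hist1h2be on the same strand.

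H2B held the 3 largest core histone values. Hist1h2bc, which encodes a common H2B and is known to give a spliced, polyadenylated transcript, stood at 0.648 in the authors' deposited table, with rank 618 and a value that no other gene shares. It lies at chr13:23684199-23692908 on the + strand, where GENCODE gives it 1 model of 2 exons and 1156 bases over a span of 8710 bases. Of the 50-base stretches of that model, 30.6% also occur in models of other genes, so that part of its value could come from reads of its copies. Hist1h2be had 0.256, a value held by 24 genes, and Hist2h2be, on chromosome 3, had 0.181, held by 2, in the authors' deposited table. Hist1h2be has 3 models, the longest with 2506 bases, over a span of 37455 bases, and Hist2h2be has 1 model of 2620 bases. The models of Hist1h2be overlap Hist1h1e on the same strand, so that reads there could belong to either. Hist1h2bb followed at 0.114, and Hist1h2bg at 0.0288, in the authors' deposited table. Of the other 13 H2B members, Hist3h2ba had 0.00104, 2 had 2.42e-06 and 10 were at 0 in the authors' deposited table. Those at 0 include Hist1h2ba, the H2B gene of male germ cells. The H2B median over 8 values other than 0 was 0.0715, computed from the authors' deposited table.

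Hist1h2bc and its nearest copies were not alike in value. Its coding sequence of 378 bases, without the stop codon, is identical at 98.7% of bases to Hist1h2bg and at 98.4% to Hist1h2be, and all 3 encode the same protein. In the authors' deposited table Hist1h2bc had 0.648, Hist1h2bg 0.0288 and Hist1h2be 0.256. Hist1h2bj, identical to Hist1h2bc at 98.9% of bases but with another protein, was at 0 in the authors' deposited table. Reads in the coding part could be split or dropped among these copies, since no counting rule was stated. In GENCODE 7 members overlap another gene on the same strand and 21 one on the opposite strand, and whether strand was used in counting is also unstated.

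H2A genes had the smallest values of the core classes. Of 18, 7 were positive, 5 of them at 2.42e-06, 1 was negative and 10 were at 0 in the authors' deposited table. Hist1h2ac was the highest at 0.0288, a value held by 358 genes, and Hist1h2ae had 0.00104, in the authors' deposited table. Hist3h2a, which lies at chr11:58954685-58956830, had -0.119 in the authors' deposited table and was the lowest of all members. Its model of 2146 bases overlaps Trim17 on the same strand and Gm44313 on the opposite strand. Of its 50-base stretches, 31.5% also occur in models of other genes, with these overlapping genes first among them, so that its value is uncertain. Hist1h2aa, the H2A gene of male germ cells, was at 0 in the authors' deposited table. The class median over 8 values other than 0 was 2.42e-06, computed from the authors' deposited table.

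H3 and H4 genes differed among themselves although their proteins hardly do. The 13 H4 members encode 1 protein from 12 distinct coding sequences, and the 12 H3 members encode 3 proteins from 12. Among H4 genes Hist4h4, the lone gene on chromosome 6 at chr6:136801553-136804415, had 0.166 in the authors' deposited table. Hist1h4h, Hist1h4i and Hist1h4d had 0.154, 0.151 and 0.0783, and Hist2h4 had -0.0278, in the authors' deposited table. Another H4 gene, Hist1h4k, had 2.42e-06, and 7 were at 0, in the authors' deposited table. The H4 median over 6 values other than 0 was 0.115, computed from the authors' deposited table. Among H3 genes Hist1h3d led with 0.126, and Hist2h3c1, Hist2h3c2 and Hist1h3f had 0.0422, 0.0288 and 0.0288, in the authors' deposited table. A further 3 H3 genes had 2.42e-06 and 5 were at 0, which leaves a median of 0.0288 over 7 values computed from the authors' deposited table. With members at 0 included, the class medians were 0.0989 for H1, 2.42e-06 for H3 and 0 for H2A, H2B and H4, computed from the authors' deposited table. The plot of the statistic by class shows 1 or a few genes above a row of genes at or next to 0 in H2B, H3 and H4. In H1, 4 of 6 genes lie above 0, and in H2A the highest gene is at 0.0288.

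Of the 22 members with a value other than 0 or 2.42e-06 in the authors' deposited table, 11 were on a list of genes known to make polyadenylated transcripts. The list of 16 such symbols was taken from background knowledge, with earlier results of these data known. It had 15 in the table, and Hist1h2bd was not found under that symbol. Such a value was held by 11 of the 15 on the list and 11 of the 52 off it, beside 15461 of all 23284 genes. The list is thus not far from the whole table, and the remaining members lie below it. Of the 15, 10 were positive, 2 negative and 3 at 0, with a median of 0.0975 over 12 values computed from the authors' deposited table. Of the 52 remaining members, 21 were positive, 0 negative and 31 at 0, with a median of 0.00104 over 21 values computed from the authors' deposited table. With members at 0 included the medians were 0.0288 on the list and 0 off it, computed from the authors' deposited table. On the list, besides the members given above, Hist2h2aa1 had 2.42e-06 and Hist1h2bj, Hist1h2bk and Hist2h2aa2 were at 0 in the authors' deposited table. Off the list, Hist4h4, Hist1h1d, Hist1h1b, Hist1h3d and Hist1h2bb lay above 0.1 in the authors' deposited table. With 1 library a population, the difference between these medians has no error attached. Without members that share most of their sequence with other genes (over 50% of 50-base stretches), the medians were 0.151 on the list and 0.0963 off it, computed from the authors' deposited table.

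Members were next counted by the length of their annotated model. A statistic of exactly 0 was held by 11.8% of members with a model over 1000 bases and by 64.0% of those with shorter models, beside 30% of all genes, in the authors' deposited table. With the same cut on RefSeq span, it was held by 40% of the 5 members over 1000 bases and by 50.8% of the 61 up to 1000. Some members are long in GENCODE only, such as Hist4h4, with a model of 2863 bases and a RefSeq span of 439. The size of the difference thus depends on the annotation used, and it was not tested. Of 17 members with a GENCODE model over 1000 bases, 15 had a statistic other than 0, and none of these was at the smallest value. Of 50 members with models up to 1000 bases, 18 had a statistic other than 0, and 11 of those were at 2.42e-06, in the authors' deposited table. The medians over values other than 0 were 0.0783 for long models and 2.42e-06 for the others, computed from the authors' deposited table. Of the 22 members whose model ran over 100 bases past the stem-loop, 17 had a value other than 0, 15 of them positive. Of the 22 whose model ended within 100 bases of it, 6 had one, all positive but 4 of them at 2.42e-06, and 16 were at 0, in the authors' deposited table. A signal AATAAA or ATTAAA, the letters that direct polyadenylation, lay in the last 40 bases of a model in 16 members, 8 on the list and 8 off it. Of those 16, 9 were positive, 2 negative and 5 at 0 in the authors' deposited table. Above 0.1 among short members were Hist1h4h, Hist1h1b, Hist1h4i and Hist1h2bb, with models of 470, 743, 727 and 508 bases. Hist1h2bh and Hist1h2br, with models of 1679 and 2197 bases, were long members at 0.

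**Figure D2:**
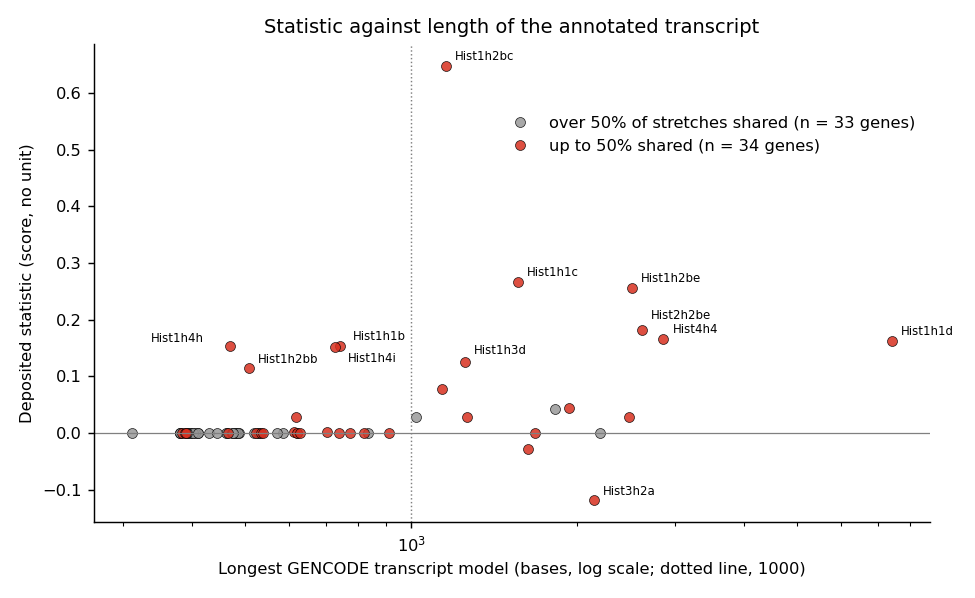
Authors' deposited statistic against the length in bases (log axis) of the longest GENCODE model of each of the 67 histone genes; grey points share over 50% of their 50-base stretches with other genes and red points up to 50%. All 12 members beyond 0.1 in size are red, and 8 of them lie right of the line at 1000 bases.

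Members that share most of their sequence with other genes were more often at 0 or 2.42e-06 than the other members. For each member, the share of 50-base stretches of its longest model that also occur in a GENCODE transcript of another gene was taken, on either strand. It was over 50% in 33 members, of which 21 were at 0, 10 at 2.42e-06 and 2 at another value, Hist2h3c1 and Hist2h3c2, in the authors' deposited table. It was up to 50% in 34 members, of which 13 were at 0, 1 at 2.42e-06 and 20 at another value, in the authors' deposited table. Of all 23284 genes, 15461 were at another value. At exactly 0 were 63.6% of members sharing over 50%, 38.2% of the other members and 30% of all genes. The median share was 73.0% in H2A, 62.0% in H3, 44.5% in H2B, 39.5% in H4 and 1.13% in H1. The share also counts genes that overlap a member in place, so it does not measure likeness to copies alone. Hist2h2bb, at 100%, shared only with Gm20628 and Gm42743, which both overlap it. The part of length and of shared sequence in the values was not tested. Reads that fit several copies or overlapping genes, the annotation counted against and any poly(A) selection cannot be told apart from these data.

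The Hist1 genes lie on chromosome 13 in a pair of blocks. The first block, from 21715763 to 22043676, holds 22 members, and the second, from 23531050 to 23934851, holds 31. In the first, Hist1h1b and Hist1h4i had values other than 0 or 2.42e-06, 14 genes were at 0 and 6 at 2.42e-06, in the authors' deposited table. In the second, 13 genes had such values, 15 were at 0 and 3 at 2.42e-06, in the authors' deposited table. Hist1h2bc sat beside Hist1h2ac at 0.0288 and Hist1h1t at 0 in the authors' deposited table. The highest member thus stood next to a gene at 0. Over values other than 0, the median was 0.0288 for Hist1 and 0.0144 for the 6 such Hist2 genes, computed from the authors' deposited table. With members at 0 included they were 0 and 1.21e-06, computed from the authors' deposited table.

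**Figure D3:**
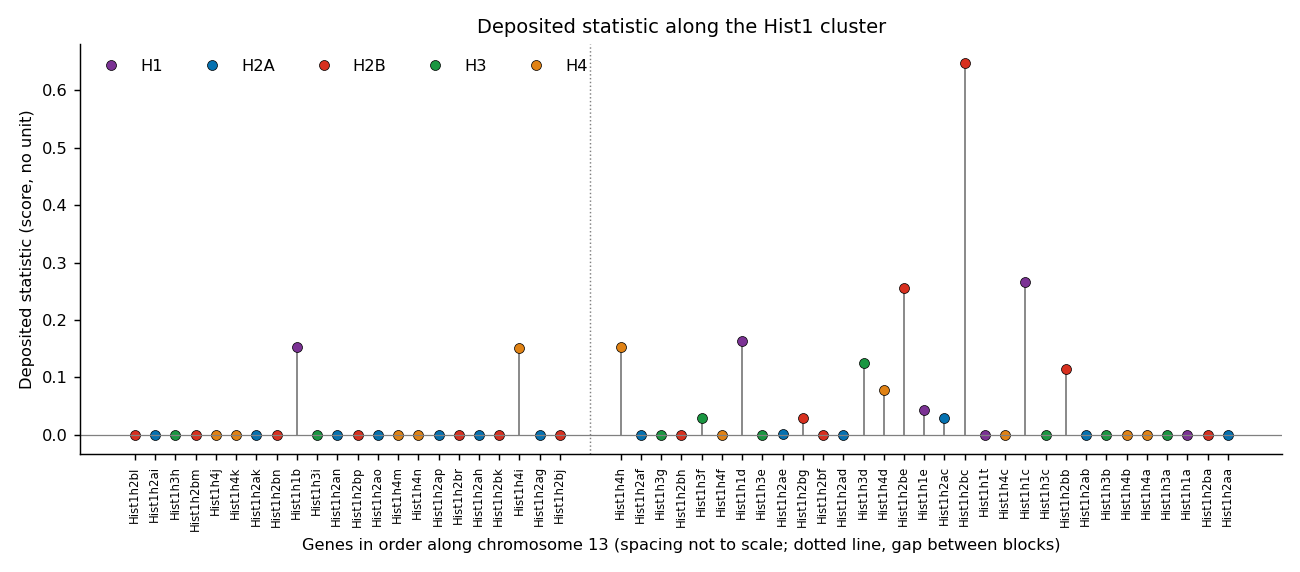
Authors' deposited statistic of the 53 Hist1 genes in their order along chromosome 13 (spacing not to scale, colours by class, dotted line at the gap between the blocks). Hist1h1b and Hist1h4i are the only genes of the first block clear of 0, and Hist1h2bc at 0.648 stands between Hist1h2ac and Hist1h1t.

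Most pairs of neighbours that share a promoter region lay close together in value, nearly all of these at 0 or 2.42e-06, and 3 did not. GENCODE places H2B and H2A genes head to head in 12 pairs, with starts 173 to 306 bases apart. Hist1h2bc and Hist1h2ac start 251 bases apart and had 0.648 and 0.0288, a difference of 0.620, in the authors' deposited table. Hist2h2be and Hist2h2ac start 239 bases apart and had 0.181 and 0 in the authors' deposited table. Hist3h2a at -0.119 in the authors' deposited table lies opposite Hist3h2bb-ps, a pseudogene at 0. In the other 9 pairs the members differed by less than 0.1, and in 5 of these both were at 0, in the authors' deposited table. All of the 9 but Hist1h2bg with Hist1h2ae held only 0 or 2.42e-06. Most members hold these values, so closeness within a pair cannot be told apart from that.

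**Figure D4:**
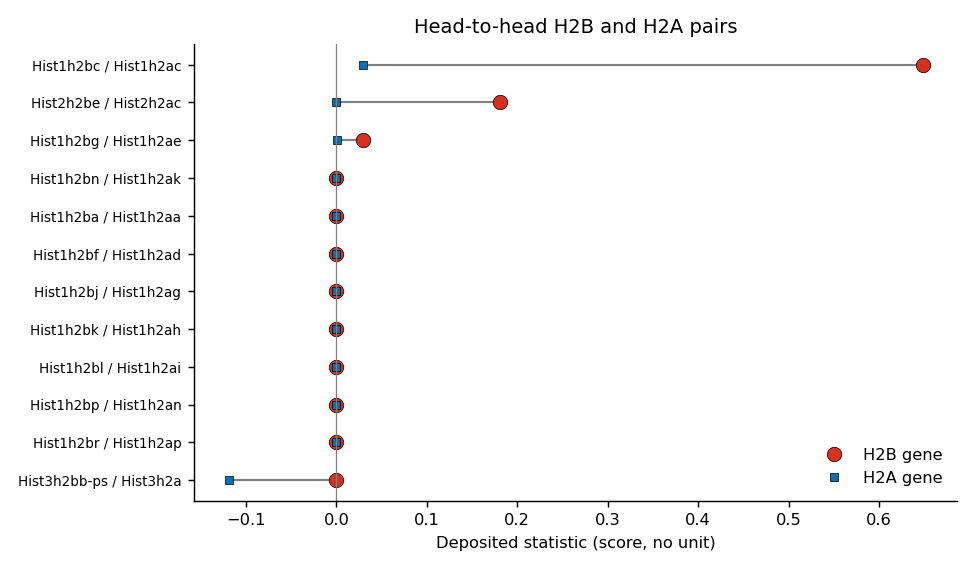
Authors' deposited statistic of the 12 head-to-head pairs; the red circle is the H2B gene (the pseudogene Hist3h2bb-ps in the last row) and the blue square the H2A gene. The widest pair is Hist1h2bc at 0.648 with Hist1h2ac at 0.0288, and 9 pairs differ by less than 0.1.

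RefSeq promoters (GRCm38.p6, 250 bases before to 50 after the start) matched 60 of the 67 members; there were none for Hist1h2bc and Hist2h2be. They are shown for Hist1h2ac, whose window reaches past the start of Hist1h2bc and so holds the DNA between that pair. They are also shown for Hist1h1c and Hist1h2be, next in value to Hist1h2bc. The Hist1h2be window is at the start of its 37455-base span, inside Hist1h1e (chr13:23620629-23622558). The Hist1h2be stem-loop lies at chr13:23585526-23585551, so this window is not next to the part of the gene that holds the stem-loop. Capitals mark ATTTGCAT, CCAAT and TATAAA on either strand (ATGCAAAT, ATTGG and TTTATA on the other), the motifs searched, none of which contains another.
Hist1h2ac, chr13:23683910-23684209, - strand: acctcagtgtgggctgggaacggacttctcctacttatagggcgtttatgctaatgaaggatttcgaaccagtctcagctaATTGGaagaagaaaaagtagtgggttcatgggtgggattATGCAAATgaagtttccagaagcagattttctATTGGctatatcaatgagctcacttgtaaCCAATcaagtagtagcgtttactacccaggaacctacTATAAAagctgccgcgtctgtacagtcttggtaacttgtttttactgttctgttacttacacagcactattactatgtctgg
Hist1h1c, chr13:23738557-23738856, + strand: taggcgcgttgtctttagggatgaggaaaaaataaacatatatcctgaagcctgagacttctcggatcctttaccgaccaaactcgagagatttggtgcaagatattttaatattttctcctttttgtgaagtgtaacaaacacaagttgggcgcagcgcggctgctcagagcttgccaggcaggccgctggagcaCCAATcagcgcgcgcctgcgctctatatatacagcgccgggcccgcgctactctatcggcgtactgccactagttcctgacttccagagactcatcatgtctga
Hist1h2be, chr13:23621045-23621344, - strand: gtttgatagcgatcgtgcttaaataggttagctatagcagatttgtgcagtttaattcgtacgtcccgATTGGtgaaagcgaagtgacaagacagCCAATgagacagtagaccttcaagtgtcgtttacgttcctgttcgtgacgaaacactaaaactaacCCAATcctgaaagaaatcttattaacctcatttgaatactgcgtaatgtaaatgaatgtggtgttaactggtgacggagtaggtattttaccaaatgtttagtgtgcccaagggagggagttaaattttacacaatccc

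ATTTGCAT, the octamer element known from H2B promoters, was found in 13 of 60 member promoters (21.7%) and in 1.74% of all 32851 promoters. These were 7 of 17 H2A and 6 of 15 H2B promoters, and 0 of 6 H1, 10 H3 and 12 H4 promoters. They rest on 10 places in the genome, since windows of head-to-head neighbours overlap and 3 places were each counted for both genes of a pair. CCAAT was in 51 of 60 (85.0%), against 37.4% of all promoters, and in every H1, H2A, H2B and H3 window but only 3 of 12 H4 windows. TATAAA was in 35 of 60 (58.3%), against 13.6% of all promoters. Set beside the statistic, the octamer was in 1 of 9 promoters of members above 0.1, Hist1h2bb, and in 7 of 31 promoters of members at 0. CCAAT was in 6 of those 9 and in 26 of those 31, and TATAAA in 5 and 17. The 9 include Hist1h2be through its window inside Hist1h1e, and leave out Hist1h2bc and Hist2h2be, which had no window. An octamer lies between the starts of each of the latter genes and its head-to-head neighbour. It was counted for the neighbours Hist1h2ac and Hist2h2ac only, so the octamer count above 0.1 is incomplete. A match describes the letters only.

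Genes of DNA replication, which act in the phase in which most histone mRNA is made, were nearly all on the positive side. Of 23 S phase genes, 22 were positive, 1 negative, and 17 at 0.5 or more, with a median of 0.713 computed from the authors' deposited table. Ccna2, the S phase and G2 cyclin, had 1.26, the ribonucleotide reductase subunit Rrm2 1.04, the thymidine kinase Tk1 0.967 and the helicase subunit Mcm5 0.959 in the authors' deposited table. Of those 23, 13 exceeded Hist1h2bc in the authors' deposited table. Markers of dividing cells were positive at 0.5 or more in 5 of 5, with a median of 1.15 computed from the authors' deposited table. The histone genes had 1 of 67 at that size, beside 3.77% of all genes. Of the 67, 34 were at exactly 0 and 11 at the smallest positive value in the authors' deposited table. None of the S phase genes or markers of dividing cells held either value. What lies behind this difference between the lists was not tested.

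Histone chaperones and carriers formed a mixed list, with factors that act at new DNA, others that place H3.3 or CENP-A outside replication, and an importin. Of 20, 15 were positive, 5 negative and 4 at 0.5 or more, with a median of 0.229 computed from the authors' deposited table. Asf1b, the H3-H4 chaperone of dividing cells, had 0.818, Chaf1a, a subunit of the assembly factor CAF-1, 0.729, Mcm2 0.676 and Tonsl 0.528 in the authors' deposited table. Nasp, a chaperone of H1 and H3-H4, had -0.223 in the authors' deposited table. The other negative values there were -0.135 for Ubn1 and -0.124 for Daxx, which act in H3.3 deposition, -0.116 for the importin Ipo4 and -0.0765 for Nap1l4. Of 12 histone variant genes, 9 were positive, 2 negative, 1 at 0 and 3 at 0.5 or more, with a median of 0.236 over 11 values computed from the authors' deposited table. The H2A variants H2afz and H2afx had 0.607 and 0.564, below H2afv at rank 511, and the macroH2A gene H2afy 0.256, in the authors' deposited table. H3f3a and H3f3b, which encode the replication-independent H3.3, had 0.0294 and -0.123 in the authors' deposited table.

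Factors that process histone mRNA had small values. Of 15, 12 were positive and 3 negative, with 0 at 0.5 in size and a median of 0.0840 computed from the authors' deposited table. Slbp, which binds the stem-loop and is also counted among the S phase genes, had 0.0196 in the authors' deposited table. Zcchc11, a terminal uridylyltransferase that tags histone mRNA for decay, had -0.236, while the scaffold Sympk, the zinc finger protein Zfp473 and Srrt had 0.213, 0.212 and 0.168, in the authors' deposited table.

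Markers of other cells also lay on the positive side. All 8 dendritic cell genes and all 7 fibroblast genes were positive, from 0.237 to 2.84 and from 0.871 to 2.14 in the authors' deposited table. Of 7 macrophage genes found, 6 were negative and Csf1r was positive, with a median of -0.245 computed from the authors' deposited table. Without values per library, the levels of these markers could not be checked. The part that such cells have in the histone values was not tested.

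**Figure D5:**
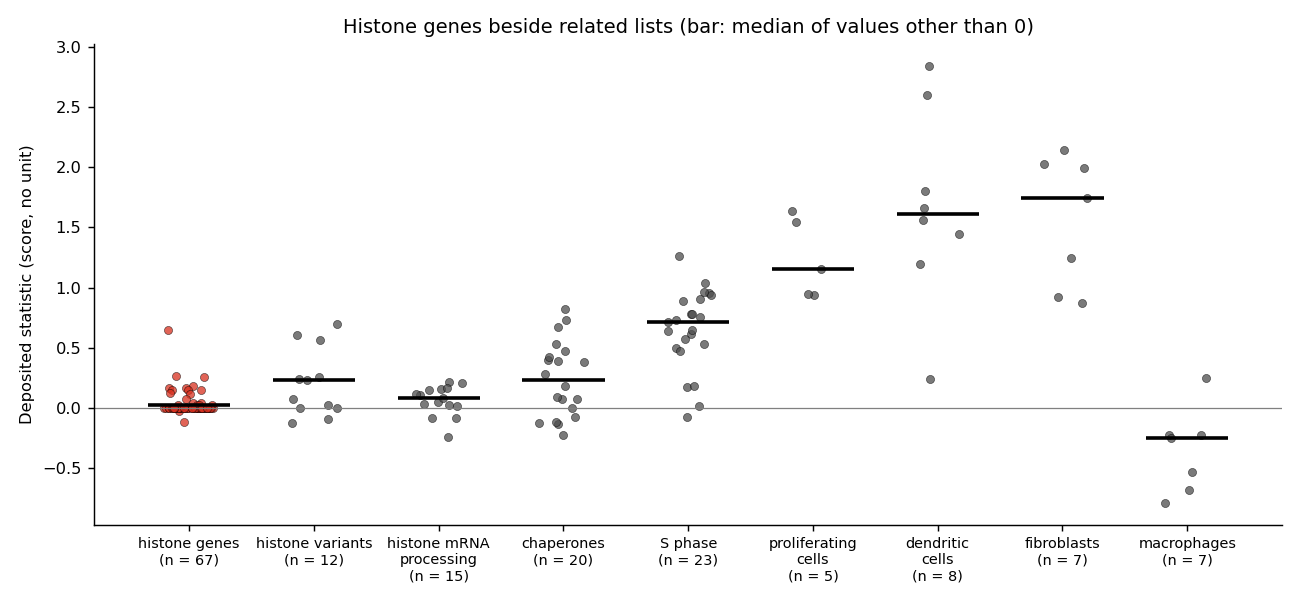
Authors' deposited statistic of the 67 histone genes (red) beside 8 related lists (grey); each point is 1 gene and the bar is the median of values other than 0. The S phase median is 0.713 and the histone gene median 0.0288, and the macrophage median of -0.245 lies on the side of Ly6c2.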

How the data were processed

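RNA from 1 library of Ly6Chi and 1 of Ly6Clo macrophages was sequenced. CASAVA 1.8.2, TopHat and the mouse build mm10 are named in the submitters' processing notes. Counting program, annotation, strand handling and the origin of the statistic were not given in the sources used here. Deposited by the authors was 1 table with, per the file headers, a statistic (a score per gene) and a ranking. The ranking equalled the rank by size of the score to within 1e-06 for 23284 of 23284 genes. The other 2 columns, of values per library, match no sample label and were not used, so depth is unknown here.

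Members were chosen by symbol. Members and lists were chosen with earlier results of these data known. Named were members at a size of 0.5 or more, class extremes, the polyadenylated list, and up to 4 genes per related list. Others (Hist1h1a, Hist1h1b, Hist1h1d, Hist1h1t, Hist1h2aa, Hist1h2ae, Hist1h2ba, Hist1h2bb, Hist1h2bg, Hist1h2bh, Hist1h2br, Hist1h3f, Hist1h4d, Hist1h4k, Hist2h2ac, Hist2h3c1, Hist2h3c2, Hist3h2bb-ps, Nasp, Ubn1, Daxx, Ipo4, Nap1l4, H3f3a, H3f3b, Slbp and Csf1r) were named after their values were seen. All 67 symbols were found in GENCODE M21, which holds 70 of this pattern; 66 matched 1 RefSeq gene of GRCm38.p6 through a synonym and 1 matched more. Models, stem-loops, 50-base stretches and head-to-head starts within 500 bases were taken by script. The searches were tested on simulated data. No test across samples was possible. Software was Biopython 1.88, Matplotlib 3.10.9, SciPy 1.17.1, pandas 2.3.3, NumPy 2.4.6 and Python 3.11.15.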

Additional observations from a re-analysis of the deposited data

How the results depend on the processing

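No paired analysis was possible because the populations were sequenced once each, which also bars leaving out a replicate. Lowering the threshold on the size of the statistic to 0.25 raised the count of members from 1 to 3, and raising it to 1 gave 0. Without members at the smallest positive value, 20 were above 0. Of 37 alternative medians and means, 32 stayed inside the 95% order-statistic interval of their median, 4 moved outside it and 1 changed sign. In small sets the interval was the whole range. These intervals describe the spread over genes and not over libraries, so the count is no measure of repeatability. Some alternatives could not move, such as the mean of the 1 Hist4 gene, or leaving Hist1h2bc out for members off the list. The H2A mean was -0.0112, against a median of 2.42e-06. With members at 0 included, 6 medians were 0, those of H2A, H2B, H4, Hist1, Hist3 and the members off the polyadenylated list. Under the same choice the medians were 2.42e-06 for H3, 1.21e-06 for Hist2, 0.0989 for H1 and 0.0288 for the polyadenylated list. Leaving out members that share over 50% of their stretches raised the median off the list to 0.0963 and that on it to 0.151, so the gap between them depends on this choice. That alternative, those based on stem-loops or same-strand overlaps, the one without Hist1h2bc and the one on the smallest value were chosen after seeing the data. Without Hist1h2bc the list's median was 0.0440. With the list replaced by a RefSeq span over 1000 bases, it was 0.256 over 3 genes with a value other than 0. Depth limits, and what a score near 0 means for a gene, could not be assessed without values per library.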
